A study of Sus scrofa with 5 samples.

Results

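The small RNA of exosomes from semen was set against that of exosomes from urine, a pair of fluids that leave the body through the urogenital tract. Exosomes are membrane-bound vesicles of nanometre size that cells release, and they carry microRNAs (miRNAs), short RNAs that repress messenger RNAs. The semen and the urine library both came from pigs of the Rongchang breed, sampled at postnatal day 180, with no treatment and no altered genotype given in the labels, and there was 1 library of each fluid. How many animals gave each fluid, whether the same animals gave both, and whether sperm or other cells were removed beforehand are not stated in the labels. Of the 411 mature miRNA names in each deposited list, 128 had at least 100 reads in semen or at least 10 reads in urine, and these are the miRNAs described. By the semen limit 111 entered and by the urine limit 84, and 67 met both. Just inside the semen limit stood miR-362 with 101 reads, miR-34a with 103 and miR-148b-5p with 104, and just outside it miR-296-3p with 97, miR-345-5p with 96 and miR-107 with 92. In urine the lowest listed values were the 10 reads of miR-122 and of miR-423-3p, and the lists hold nothing between 0 and 10.

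Semen is a mixture of sperm and of fluid from the testis, the epididymis and the accessory glands, whereas urine is formed in the kidney tubules and then passes the lining of the bladder. Tubule cells are known for miR-192, miR-194 and miR-204, male germ cells for the miR-34 family, and epithelia in general for the miR-200 family. miRNAs made from the same precursor RNA come as a 5p and a 3p arm, of which usually 1 is kept. Many belong to families that share the bases pairing with their targets, so the make-up of a family can be compared within a library.

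Semen held 2284926 miRNA reads and urine 26522. The totals recovered from the normalized column of the authors, 10801967 reads in semen and 10796777 in urine, were nearly equal. The listed miRNAs made up 21.2% of the semen total but 0.246% of the urine total. Levels below are counts per 1000000 of a library's own miRNA reads (CPM), so they describe the mixture of miRNAs and not the amount. A single read stood for 0.438 CPM in semen and 37.7 CPM in urine. A value listed at 0 stands for 0 to 9 reads, and ratios against it were computed as if it were 10, which makes them bounds. Ratios carry exact 95% intervals for counting error only. With 1 library a side the spread between animals or preparations was not measured, there is no test, and every difference is one between these libraries.

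Among the 128 miRNAs, 77 were above 0 in both libraries, 44 were listed at 0 in urine and 7 were listed at 0 in semen. At the limit of 4-fold, 4 were higher in semen (3.12% of the 128) and 32 were lower in semen (25% of the 128), and 7 of those 32 were listed at 0 in semen. The other 92 passed neither limit, among them 50 that were above 0 in both libraries and 42 listed at 0 in urine. Depth did not allow both directions equally. To be called higher in semen against an unlisted urine value a miRNA needed 1508 CPM in semen, which 27 of the 128 reached, while all 84 miRNAs listed in urine could be called lower, of which the 32 are 38.1%. The entry rule also fixed part of the count. A total of 17 miRNAs entered by the urine limit alone. With under 100 reads in semen each had to be at least 8.70-fold lower there, so their 17 calls say nothing beyond that rule. They were miR-1, miR-122, miR-127, miR-1285, miR-143-3p, miR-181a, miR-194a, miR-196b-5p, miR-199a-3p, miR-206, miR-363, miR-378b-3p, miR-4331, miR-450b-5p, miR-450c-5p, miR-451 and miR-542-3p. Among the 67 that met both limits, 15 were at least 4-fold lower in semen, which is 22.4%. Some of these calls were fixed as well. miR-9, miR-9-2, miR-146a-5p, miR-30c-3p and miR-204 stood at 46.4 to 68.3 CPM in semen. That is more than 4-fold under the 377 CPM that 10 reads stand for in urine, so any listing in urine made them lower. The 22.4% includes them. Over the 77 miRNAs above 0 in both, the median log2 ratio of semen over urine was -0.90, with 16 above equality and 61 below it. This shift depended on the scaling: it was 0.09 after TMM scaling, which trims extreme miRNAs, -0.08 with totals that leave out miR-148a-3p, and 5.53 on the authors' RPM. Each of these multiplies all ratios by 1 factor, so the order of the 77 miRNAs is the same and the position of equality is not.

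**Figure D1:**
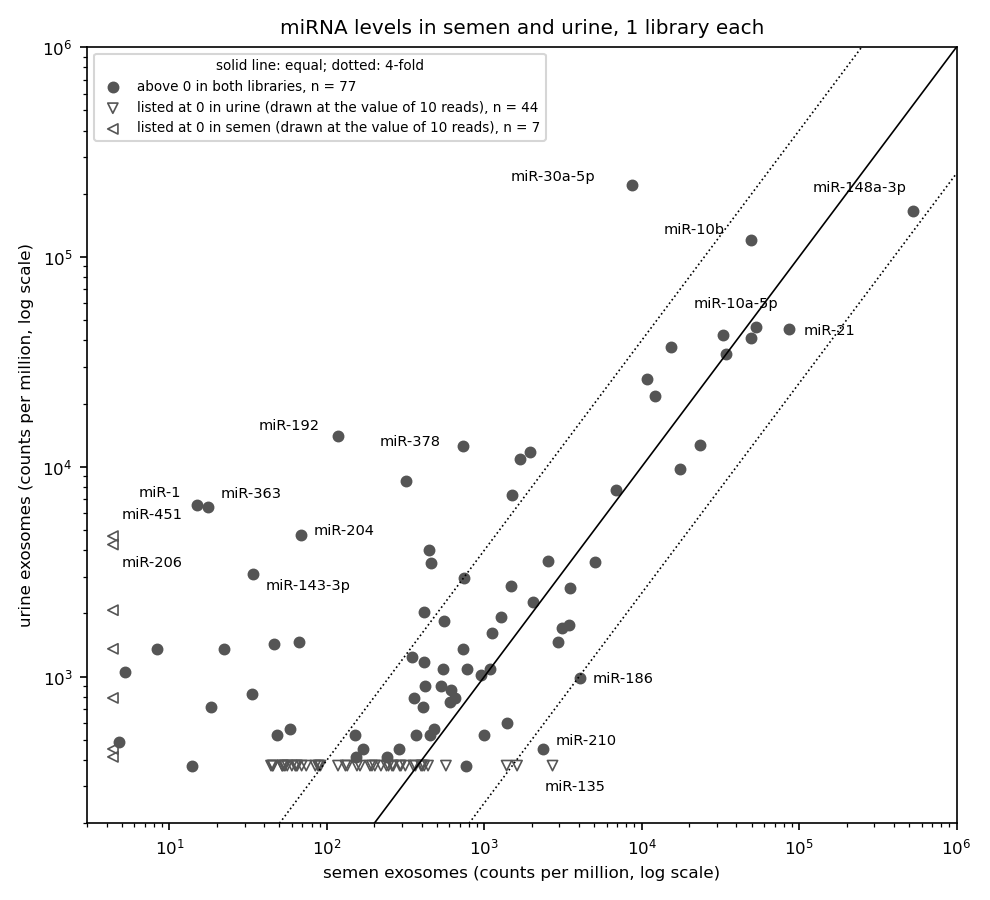
Each symbol is 1 of the 128 miRNAs, with its level in semen on the x axis and in urine on the y axis, both in CPM on log scales. Filled circles are the 77 miRNAs above 0 in both libraries, open triangles those listed at 0 in urine (44) or in semen (7), drawn at the level of 10 reads. Most of the symbols past a dotted 4-fold line lie on the urine side. Part of them are miRNAs listed at 0 in urine with few reads in semen, such as miR-16 and miR-362. They are placed there because a 0 is drawn at 10 reads, and they were not called. The 17 miRNAs that entered by the urine limit alone had to lie there.

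The most abundant miRNAs were largely common to both fluids. The 10 leading miRNAs of semen and the 10 of urine shared 8 names, miR-148a-3p, miR-21, miR-10a-5p, miR-10b, miR-99a, let-7i, miR-26a and let-7f. These 8 took 85.0% of the semen reads and 53.3% of the urine reads. The semen list was completed by let-7a and let-7c, the urine list by miR-30a-5p and let-7g. Of these 12 leading miRNAs, miR-30a-5p alone passed the 4-fold limit.

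miR-148a-3p, known from secretory tissues, had 1206850 reads in semen and 4401 in urine. That is 528179 CPM in semen, more than all its other miRNAs together, and 165938 CPM in urine, where it ranked second. The ratio was 3.18 (3.09 to 3.28), below the 4-fold limit, and it was 6.32 after TMM scaling. Its 5p arm, miR-148a-5p, had 3692 reads in semen and was listed at 0 in urine, at least 4.29 times higher in semen (lower end of the counting interval 2.33). Of its relatives with the same seed, miR-148b-3p stood at 3120 CPM in semen and 1697 CPM in urine, and miR-152 at 547 CPM in semen and 1093 CPM in urine. miR-148a-3p held 99.0% of the reads of the family in semen and 98.3% in urine. miR-21, a miRNA raised in many growing and inflamed tissues, was next in semen with 86877 CPM, against 45396 CPM in urine, a ratio of 1.91 (1.81 to 2.03).

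Besides miR-148a-5p, the miRNAs at least 4-fold higher in semen were miR-135, miR-210 and miR-186. miR-135 had 6200 reads in semen, 2713 CPM, and was listed at 0 in urine, at least 7.20 times higher (lower end 3.91, under the limit). At its semen share 72.0 reads would have been expected in the urine library, where at most 9 were present. miR-210, the miRNA induced by low oxygen, had 5372 reads in semen and 12 in urine, a ratio of 5.20 (2.97 to 10.1). miR-186, whose gene lies within ZRANB2, had 9228 reads in semen and 26 in urine, a ratio of 4.12 (2.81 to 6.31). The intervals of all 4 reach below 4. miR-676-3p, whose gene lies within EDA, came close to the limit with 3168 reads in semen and a listed 0 in urine, at least 3.68 times higher.

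Both arms of miR-423 were also tilted to semen. miR-423-5p had 3195 reads in semen and 16 in urine, a ratio of 2.32 (1.43 to 4.06), and miR-423-3p had 1740 in semen and 10 in urine, a ratio of 2.02 (1.10 to 4.22). Near 2 were also miR-29a, at 2923 CPM in semen and 1470 CPM in urine (ratio 1.99), and miR-22-3p, at 3465 CPM in semen and 1772 CPM in urine (ratio 1.96). With the 2-fold limit 8 miRNAs were higher in semen (6.25% of the 128) and 45 were lower (35.2%).

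Most of the other semen miRNAs without a urine value cannot be placed. Of the 44 listed at 0 in urine, 36 had so small a share in semen that fewer than 10 reads would have been expected in urine, so a listed 0 says nothing about them. The remaining 8 were miR-135, miR-148a-5p, miR-676-3p, miR-183, miR-128, miR-425-5p, miR-96-5p and miR-10a-3p. For miR-183 the expected number was 15.1 reads, and for the last 4 it lay between 10.5 and 11.7. The male germ cell list fell in the unresolved class. miR-34c, its only one of the 128, had 604 reads in semen and a listed 0 in urine, where 7.01 reads would have been expected. Of the other names of that list, miR-202-5p had 11 reads in semen and miR-202-3p was at 0, and all were listed at 0 in urine. miR-34a, a family member made in many tissues, had 103 reads in semen and a listed 0 in urine.

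The kidney tubule miRNAs among the 128 had lower CPM in semen. miR-192, which marks tubule, gut and liver epithelium, had 269 reads in semen and 371 in urine, or 118 CPM in semen and 13988 CPM in urine, 119-fold lower in semen (101 to 139.5). miR-204, whose gene lies within TRPM3, stood at 68.3 CPM in semen, from 156 reads, and at 4713 CPM in urine, and was 69.0-fold lower in semen (54.1 to 87.9). miR-194a, which lies beside miR-192 in the genome, had 51 reads in semen and 36 in urine and was 60.8-fold lower in semen (38.6 to 95.02). miR-194a entered by the urine limit alone, so its call was fixed by the rule. miR-192 and miR-204 met both limits and were called lower, as were 22.4% of all miRNAs that met both. But miR-204, at 68.3 CPM in semen, lay more than 4-fold under the 377 CPM that 10 reads stand for in urine. Its listing in urine thus fixed its call, which leaves miR-192. Of the other 5 names of the list, miR-190b had 52 reads in semen and a listed 0 in urine, and miR-190a, miR-194b-5p, miR-194b-3p and miR-215 were at 0 in both. The summed list took 0.0231% of the semen reads and 2.01% of the urine reads. On the authors' RPM its ratio was 0.99, with 528 reads in semen and 532 in urine.

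The miR-30 family was lower in semen by CPM in each of the 8 arms among the 128, to unequal degrees. miR-30a-5p had 19723 reads in semen, 8632 CPM, and 5855 in urine, 220760 CPM, and led the urine library with 22.1% of its reads. It was 25.6-fold lower in semen (24.8 to 26.3), and its 3p arm, with 724 reads in semen and 227 in urine, was 27.0-fold lower (23.2 to 31.4). miR-30c-5p was 6.47-fold lower (5.72 to 7.29), miR-30b-5p 4.91-fold (3.66 to 6.47) and miR-30e-5p 4.91-fold (4.23 to 5.68). miR-30d, by contrast, stood at 12121 CPM in semen and 21680 CPM in urine, a ratio of 0.56 (0.51 to 0.61), which became 1.11 after TMM scaling and 1.04 with DESeq2 size factors. All 8 arms met both entry limits, and 6 of the 8 were at least 4-fold lower in semen by CPM. Of all miRNAs that met both limits 22.4% were. The call of miR-30c-3p, at 66.1 CPM in semen, was fixed by its listing in urine, where 10 reads stand for 377 CPM. However, miR-30b-5p, miR-30e-5p and miR-30c-5p missed the limit after TMM scaling (ratios 0.40, 0.40 and 0.31). They also missed it with DESeq2 size factors (0.38, 0.38 and 0.29) and with totals without miR-148a-3p (0.36, 0.36 and 0.27). The median log2 ratio of the 8 was -2.50, and that of all 67 was -0.77. The family's sum kept its direction under TMM, DESeq2 size factors and totals without miR-148a-3p (ratios 0.18, 0.17 and 0.16), and turned to 7.96 on the authors' RPM. miR-30b and miR-30d, whose genes lie within 10 kb of each other, had ratios of 0.20 and 0.56. As a make-up, miR-30d held 47.6% of the family's reads in semen (47.2 to 48.0) and 7.86% in urine (7.26 to 8.51), while miR-30a-5p held 33.9% in semen (33.5 to 34.3) and 80.1% in urine (79.2 to 81.0).

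**Figure D2:**
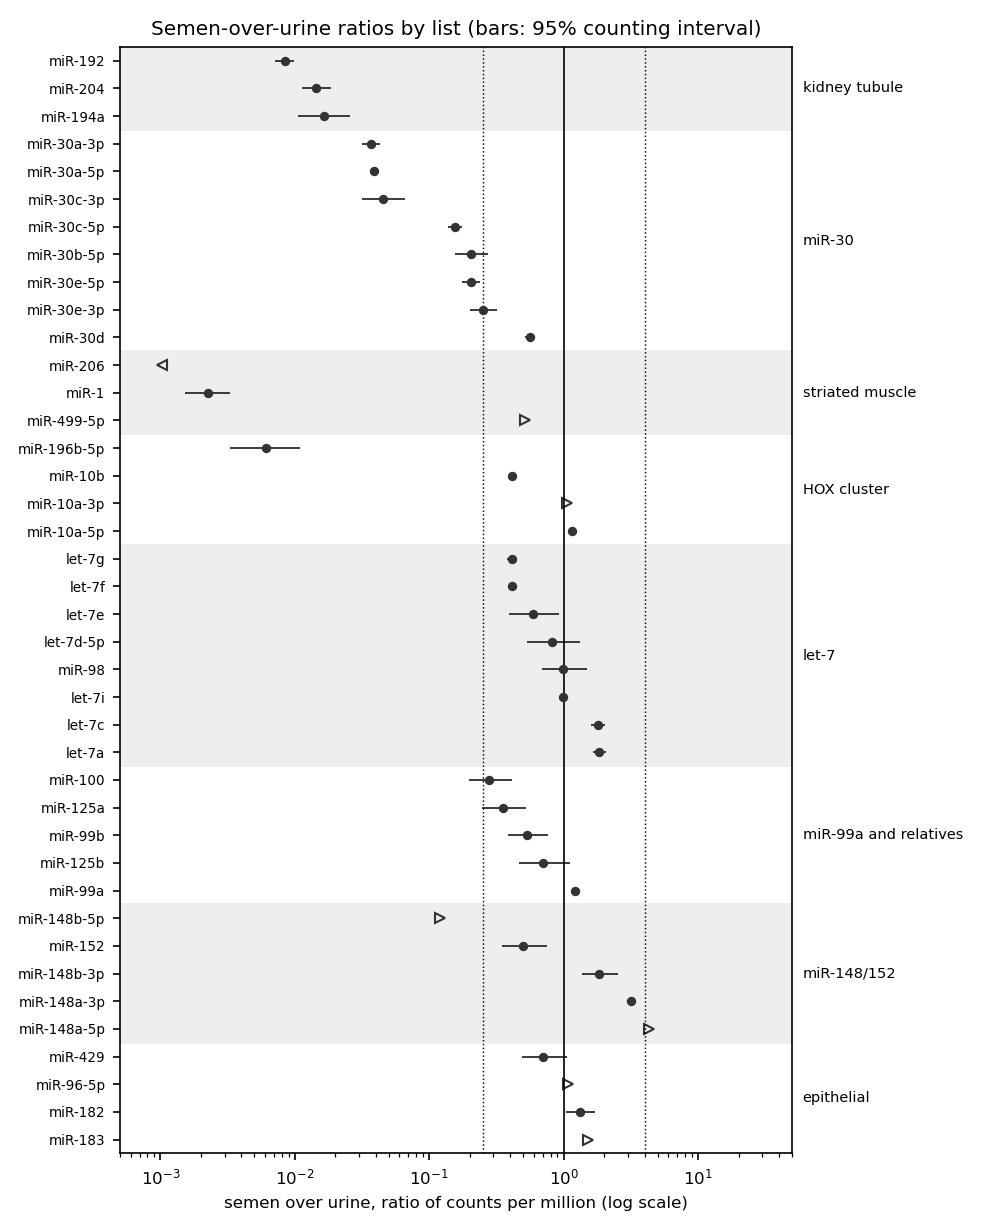
Semen-over-urine ratios of CPM on a log scale for the listed miRNAs, grouped by list. Points with bars are ratios with 95% counting intervals, right-pointing triangles lower bounds (urine listed at 0) and left-pointing triangles upper bounds (semen listed at 0). The kidney tubule members lie between 0.0084 and 0.0164, and the let-7 members between 0.41 and 1.84.

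Striated muscle miRNAs were split. miR-1 had 34 reads in semen and 174 in urine and was 441-fold lower in semen (304 to 657). miR-206, known from skeletal muscle, was listed at 0 in semen and had 113 reads in urine, at least 973.5-fold lower in semen (lower end 510). Both miR-1 and miR-206 entered by the urine limit alone, so their calls were fixed by the rule. miR-499-5p, known from muscle, had 442 reads in semen and a listed 0 in urine, but at its semen share 5.13 reads would have been expected in urine. The remaining 5 names of the list, both arms of miR-133a and miR-499-3p, miR-133b and miR-208b, were at 0 in both libraries. miR-133a and miR-133b are made from the same transcripts as miR-1 and miR-206.

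miR-451, known from erythroid cells, was listed at 0 in semen and had 124 reads in urine, 4675 CPM, at least 1068-fold lower in semen (lower end 562). It entered by the urine limit alone, so its call was fixed by the rule. Of the 2 other names of the red blood cell list, miR-486 had 12 reads in semen and was listed at 0 in urine, and miR-144 was at 0 in both. The semen level of miR-486, 5.25 CPM, lay far below the 377 CPM that 10 reads stand for in urine. Its listed 0 in urine thus gives no direction between semen and urine. In the serum library of the same study miR-451 had 40127 reads and miR-486 had 8179, in the plasma library they had 4775 and 1909, and in the bile library 6896 and 66. The part of blood cells in the urine library was not tested. White blood cell miRNAs were scarce: of 9 names, 6 were at 0 in both libraries. miR-146a-5p had 134 reads in semen and 15 in urine, 9.64-fold lower in semen by CPM (5.25 to 16.5). At 58.6 CPM in semen its call was fixed by its listing in urine. miR-146b had 144 reads in semen and miR-342 had 13, and both were listed at 0 in urine. At 63.0 and 5.69 CPM in semen they lay below the 377 CPM of 10 urine reads, so these zeros give no direction either.

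Smooth muscle, fibroblast and liver markers were few in both fluids. miR-143-3p, a smooth muscle miRNA, had 78 reads in semen and 82 in urine, 90.6-fold lower in semen by CPM (65.6 to 125.1), and both arms of miR-145 with miR-143-5p were at 0 in both libraries. miR-199a-3p, a fibroblast miRNA, had 11 reads in semen and 13 in urine (102-fold lower in semen, 42.1 to 251), with the other 4 names of its list at 0. miR-122, the main miRNA of hepatocytes, had 32 reads in semen and 10 in urine (26.9-fold lower in semen, 11.8 to 56.1). Since miR-143-3p, miR-199a-3p and miR-122 entered by the urine limit alone, their calls were fixed by the rule. The endothelial miR-126-3p had 837 reads in semen and 14 in urine, a ratio of 0.69 with an interval that spans equality (0.41 to 1.27).

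The RefSeq annotation of Sscrofa11.1 places a copy of 20 of the 128 miRNAs on the X chromosome. Of these, 4 were at least 4-fold lower in semen, which is 20%, against 25% of all 128, and all 4 entered by the urine limit alone. miR-450c-5p, miR-450b-5p and miR-542-3p, whose genes lie within 10 kb of each other, were all listed at 0 in semen and had 55, 21 and 12 reads in urine. For miR-450c-5p, the most abundant of them, that is at least 474-fold lower in semen (lower end 239). miR-363 of the miR-106a-363 cluster had 40 reads in semen and 171 in urine, 368-fold lower in semen (260 to 534). Its relative miR-92a did not pass the limit, with 2932 reads in semen and 51 in urine, a ratio of 0.67 (0.51 to 0.90). Within the miR-17-92 cluster and its paralogs, miR-363 held 0.907% of the reads in semen (0.648 to 1.23) and 72.5% in urine (66.3 to 78.1), and miR-92a held 66.5% in semen (65.04 to 67.8) and 21.6% in urine (16.5 to 27.4). The urine shares are upper limits, because 10 of the 13 names are listed at 0 there. With 9 reads for each such name in a library, miR-363 held 0.899% in semen and 52.5% in urine, and miR-92a 65.9% in semen and 15.6% in urine. Other X-linked miRNAs did not pass the limit, among them miR-676-3p, at least 3.68 times higher in semen, and miR-221-3p, with a ratio of 1.88. miR-532-5p, with 5807 reads in semen and 94 in urine, had a ratio of 0.72 (0.58 to 0.89), and its neighbour miR-500, with 547 in semen and 11 in urine, a ratio of 0.58 (0.32 to 1.16). The sum of that cluster's list turned to 1.42 after TMM scaling.

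Other miRNAs at least 4-fold lower in semen came from several families. miR-378 stood at 737 CPM in semen and 12518 CPM in urine (16.98-fold lower in semen, 15.1 to 19.1), and miR-378b-3p, of nearly the same sequence, at 18.4 CPM in semen and 716 CPM in urine. miR-27b-3p was at 1948 CPM in semen and 11802 CPM in urine (6.06-fold lower, 5.39 to 6.80), and its neighbour miR-23b at 446 CPM in semen and 3997 CPM in urine (8.97-fold lower, 7.27 to 11.0). The paralogs from the other cluster did not pass the limit: miR-27a was at 359 CPM in semen and 792 CPM in urine, and miR-23a at 168 CPM in semen and 452 CPM in urine. But miR-27b-3p too missed it under TMM, DESeq2 size factors and totals without miR-148a-3p (ratios 0.33, 0.31 and 0.29). miR-23b took 72.6% of the reads of the miR-23 pair in semen (70.1 to 74.9) and 89.8% in urine (82.9 to 94.6), and miR-27b-3p took 84.4% of the miR-27 pair in semen (83.4 to 85.4) and 93.7% in urine (90.5 to 96.1). miR-140-3p, known from cartilage, was at 462 CPM in semen and 3469 CPM in urine, and missed the limit after TMM scaling (ratio 0.26). miR-181a was 24.9-fold lower in semen (14.8 to 40.5), from 76 reads in semen and 22 in urine. miR-9, known from neural cells, was 30.9-fold lower (20.7 to 45.1), from 106 reads in semen and 38 in urine, and the separately listed miR-9-2 had 111 in semen and 14 in urine. miR-4331 had 12 reads in semen and 28 in urine, and miR-1285 was listed at 0 in semen with 36 in urine. The set was completed by miR-127, an imprinted-locus miRNA, listed at 0 in semen with 11 reads in urine. Of the miRNAs named here, miR-378b-3p, miR-181a, miR-4331, miR-1285 and miR-127 entered by the urine limit alone, so their calls were fixed by the rule. miR-9 and miR-9-2 stood at 46.4 and 48.6 CPM in semen, against the 377 CPM that 10 reads stand for in urine. Their calls were thus fixed by their listing in urine. In all, the 32 miRNAs took 1.67% of the semen reads and 34.0% of the urine reads, of which miR-30a-5p alone was 22.1%. The direction of these sums follows from the 4-fold limit by which the 32 were chosen.

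Because the total reads behind the libraries were nearly equal, the deposited reads can also be set side by side without scaling. Of the 128 miRNAs 114 had more reads in semen and 14 had more in urine. The entry rule and the number of miRNA reads set much of this split. Semen held 2284926 miRNA reads against 26522 in urine, and the 44 listed at 0 in urine all entered with at least 100 reads in semen. The 14 were miR-192, miR-1, miR-363, miR-451, miR-206, miR-143-3p, miR-450c-5p, miR-1285, miR-196b-5p, miR-4331, miR-450b-5p, miR-199a-3p, miR-542-3p and miR-127. They summed to 463 reads in semen and 1247 in urine. On this basis 5 were at least 4-fold lower in semen, namely miR-1, miR-206, miR-363, miR-450c-5p and miR-451. These 5, and all of the 14 but miR-192, entered by the urine limit alone, with under 100 reads in semen. Their passing here is thus no separate support for the calls by CPM. miR-30a-5p and miR-204, lower in semen by CPM, had 3.37 times and 1.25 times the urine value in semen on the authors' RPM.

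**Figure D3:**
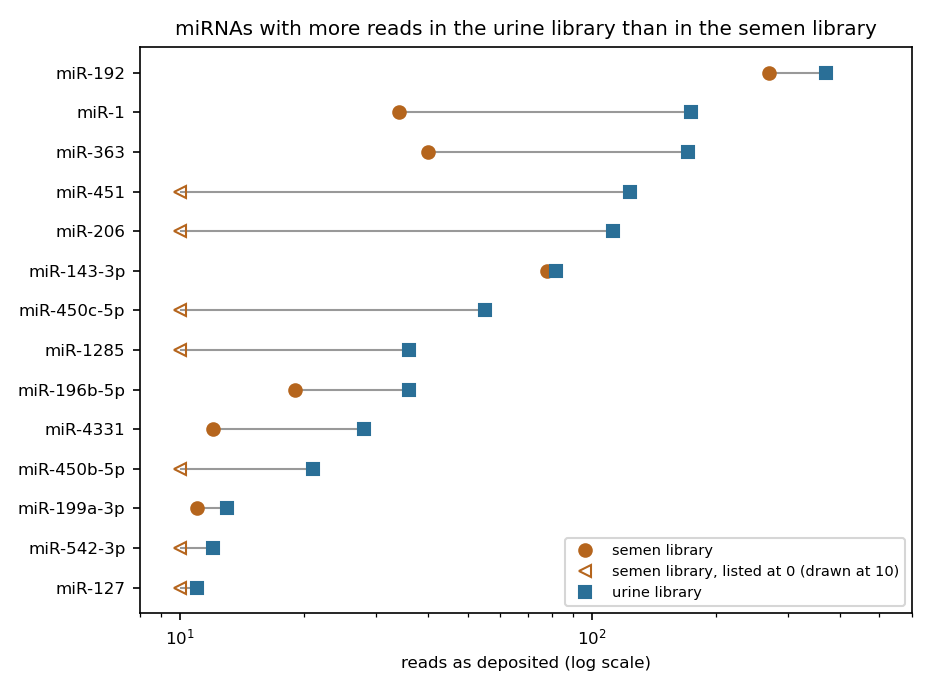
Deposited reads on a log scale for the 14 miRNAs with more reads in the urine library, with semen as circles and urine as squares. Open triangles mark the 7 miRNAs listed at 0 in semen, drawn at 10 reads. miR-143-3p lies almost level, with 78 reads in semen and 82 in urine, and miR-451 and miR-206 lie furthest apart.

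The miR-10 pair and the let-7 family did not pass the 4-fold limit, but their make-up differed. miR-10a-5p, from the HOXB gene cluster, had 121735 reads in semen and 1229 in urine, 53277 CPM in semen against 46339 CPM in urine, a ratio of 1.15 (1.09 to 1.22). miR-10b, from the HOXD cluster, had 113734 reads in semen and 3184 in urine, 49776 CPM in semen against 120051 CPM in urine, a ratio of 0.41 (0.40 to 0.43). miR-10b took 48.3% of the reads of the pair in semen (48.1 to 48.5) and 72.2% in urine (70.8 to 73.5). The mature miRNAs differ at few bases, and how the authors assigned ambiguous reads is not given. miR-196b-5p, also HOX-encoded, had 19 reads in semen and 36 in urine and was 163-fold lower in semen (91.2 to 301). It entered by the urine limit alone, so its call was fixed by the rule. The sum of the HOX list had a ratio of 0.62 by CPM, and 1.22 after TMM scaling.

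let-7, a family that restrains growth in differentiated cells, took 10.4% of the semen reads and 12.3% of the urine reads with miR-98 and all arms counted. Its members ran in opposite directions. let-7a stood at 23456 CPM in semen and 12744 CPM in urine (ratio 1.84, 1.65 to 2.05), and let-7c at 17603 CPM in semen and 9765 CPM in urine (1.80, 1.60 to 2.04). let-7f stood at 15399 CPM in semen and 37177 CPM in urine (0.41, 0.39 to 0.44), and let-7g at 10777 CPM in semen and 26318 CPM in urine (0.41, 0.38 to 0.44). let-7i was level by CPM, at 34412 CPM in semen and 34537 CPM in urine. The number of let-7f reads per let-7a read was 0.656 in semen and 2.92 in urine, and no library scaling enters these values. The sum of the family had a ratio of 0.84 by CPM and 1.67 after TMM scaling, and thus no direction is given for it.

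**Figure D4:**
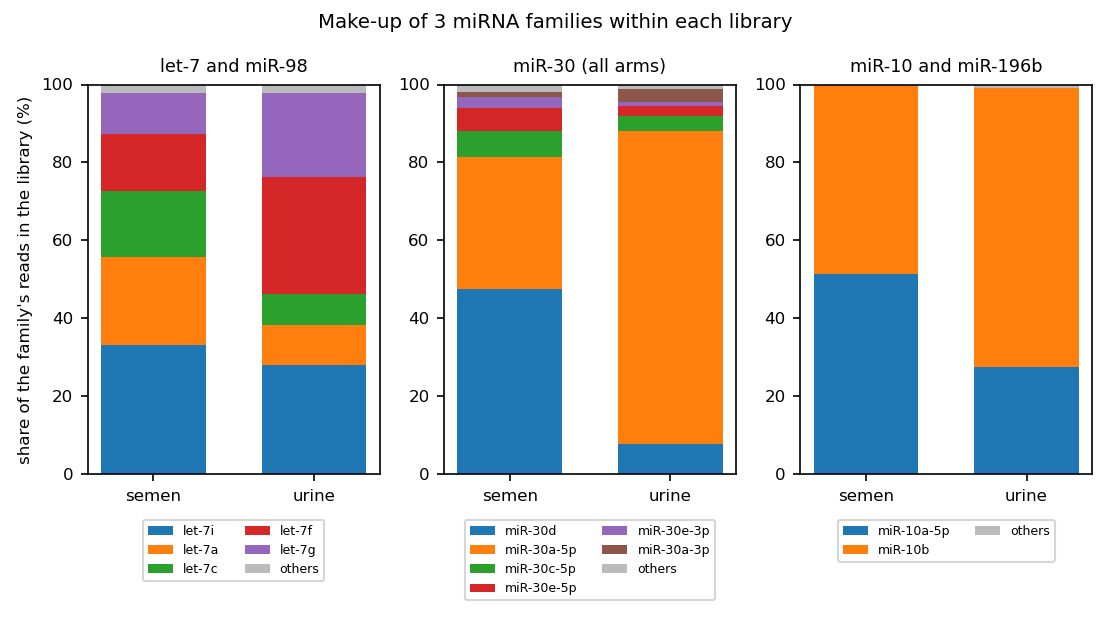
Stacked bars give the percent of a family's reads taken by each arm, within the semen library (left bar) and the urine library (right bar), for let-7 with miR-98, for miR-30 and for miR-10 with miR-196b. let-7f and let-7g, miR-30a-5p and miR-10b take larger shares in urine, and let-7a and let-7c, miR-30d and miR-10a-5p in semen.

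let-7c and miR-99a lie within 10 kb of each other, and both leaned to semen by CPM. miR-99a had 113027 reads in semen and 1086 in urine, 49466 CPM in semen against 40947 CPM in urine, a ratio of 1.21 (1.14 to 1.28). Its relatives were lower in semen by CPM: miR-99b at 728 CPM in semen and 1357 CPM in urine, and miR-100 at 349 CPM in semen and 1244 CPM in urine. miR-125a was at 412 CPM in semen and 1169 CPM in urine, and miR-125b at 611 CPM in semen and 867 CPM in urine (ratio 0.71, 0.47 to 1.12). miR-99a held 95.9% of the reads of these 5 in semen and 89.8% in urine.

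The epithelial list has 4 members among the 128, of which miR-183 and miR-96-5p are listed at 0 in urine and too low in semen for a call in either direction. The other two, miR-429 and miR-182, did not pass the 4-fold limit, which 3.12% of all 128 passed upwards and 25% downwards. miR-429, of the miR-200 family, was measured with 1763 reads in semen and 29 in urine, a ratio of 0.71 (0.49 to 1.06). miR-182 had 7991 reads in semen and 70 in urine, a ratio of 1.33 (1.05 to 1.70). Its cluster mates miR-183 and miR-96-5p had 1304 and 923 reads in semen and were listed at 0 in urine. The bounds on their ratios were 1.51 and 1.07, with lower ends of 0.82 and 0.58, which lie under equality. miR-205, a miRNA of stratified epithelium and outside the 128, had 90 reads in semen and a listed 0 in urine. The ratio of the list's sum was 1.42 (1.16 to 1.74) with the urine zeros as 0 reads, and 1.11 with 9 reads for each of them, with an interval that spans equality (0.93 to 1.34).

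The leading arm of a precursor was usually the same in both fluids where both arms were listed. Both arms were listed for 27 precursors in semen and for 5 of these in urine. miR-30a kept its 5p arm in 96.5% of reads in semen (96.2 to 96.7) and in 96.3% in urine (95.8 to 96.7), and miR-30e in 66.9% in semen (65.6 to 68.2) and 71.3% in urine (65.6 to 76.6). miR-423 kept it in 64.7% in semen and 61.5% in urine (40.6 to 79.8). miR-374a was near balance, with the 5p arm at 47.4% in semen (45.2 to 49.7) and 57.6% in urine (39.2 to 74.5), and it was the only precursor of the 5 whose leading arm was not the same. The interval of miR-30c did not overlap between the fluids: its 5p arm took 96.2% in semen (95.6 to 96.8) and 88.1% in urine (84.1 to 91.4). The 5p reads can come from either of 2 miR-30c genes, and a further 3p name, miR-30c-1-3p, had 29 reads in semen and a listed 0 in urine. In 14 other precursors urine listed 1 arm. For 11 of these the other arm was expected at under 10 reads, so its absence from the list says nothing. For the remaining 3, miR-148a, miR-28 and miR-140, the semen arm ratio led to 13.5, 11.2 and 10.4 expected reads of the missing arm in urine, close to the listing limit of 10.

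Set beside serum, plasma and bile, 7 of the 77 miRNAs (9.09%) were at least 2-fold higher in both semen and urine than in each of those fluids. miR-10a-5p stood at 53277 CPM in semen and 46339 CPM in urine, against 5045 CPM in serum, 218 CPM in plasma and 4136 CPM in bile. miR-10b stood at 49776 CPM in semen and 120051 CPM in urine, against 5689 CPM in serum, 205 CPM in plasma and 2006 CPM in bile. miR-374a-3p, at 452 CPM in semen and 528 CPM in urine, was 5.77 and 6.74 times its bile level, and miR-429 was 3.82 and 5.41 times its bile level. The other 3 were miR-210, miR-125a and miR-9. In urine miR-374a-3p had 14 reads, miR-429 29, miR-210 12 and miR-125a 31, and no counting interval was computed for these ratios. miR-9 had 106 reads in semen and 38 in urine, 28 in bile, and was listed at 0 in serum and plasma, so its lower ratio of 2.20 is against the serum value of 10 reads. The highest other level was 78.3 CPM for miR-374a-3p, 163 for miR-125a, 172 for miR-210 and 21.1 for miR-9. All are more than 2-fold under the 377 CPM that 10 reads stand for in urine. For these the urine part of the rule was met by any listing in urine, for miR-374a-3p also at 4-fold, and only the semen part was open. After TMM scaling over the 5 libraries 5 remained, without miR-210 and miR-9. At 4-fold 3 remained, miR-10a-5p, miR-10b and miR-374a-3p, and on the authors' RPM the count was 0.

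**Figure D5:**
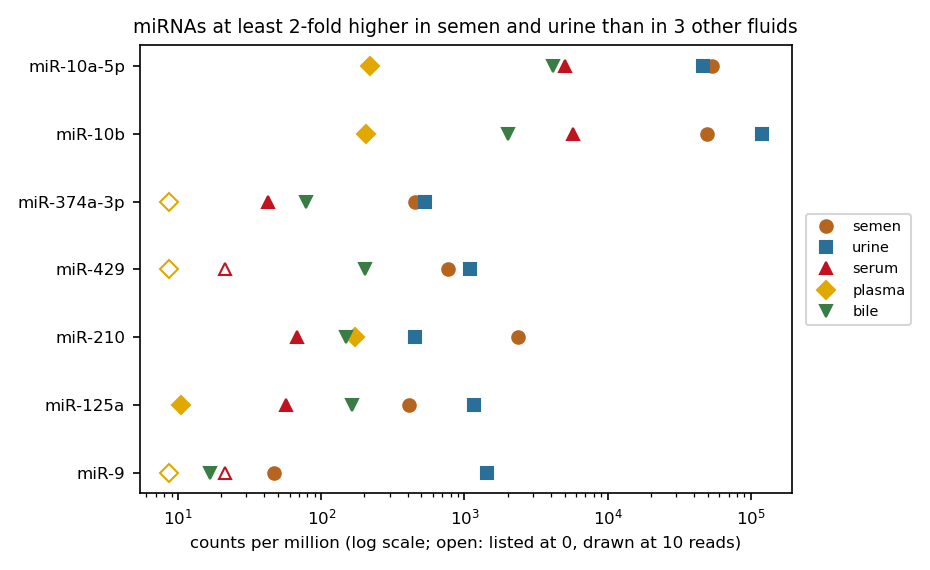
Levels in CPM on a log scale of the 7 miRNAs that were at least 2-fold higher in semen and in urine than in serum, plasma and bile. Open symbols are values listed at 0, drawn at 10 reads. Semen and urine lie right of the other 3 fluids in each line, and urine lies right of semen for all but miR-10a-5p and miR-210.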

How the data were processed

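A reagent was used to isolate the exosomes, per the labels' protocols, RNA was harvested with Trizol, and small RNA was gel-purified, ligated, amplified and sequenced. The submitters' processing notes name bcl2fastq 2.17 and genome build Sscrofa10.2. No aligner, miRNA annotation or treatment of multiply matching reads is stated, so values of near-identical miRNAs (let-7, miR-10, miR-378, miR-9) are uncertain. The authors deposited a count per mature miRNA name. They also deposited a normalized value whose ratio to the count is constant within a library (largest deviation 0.00461%), read here as RPM. Library totals were recovered from that constant.

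CPM, ratios with exact conditional binomial 95% intervals and shares with Clopper-Pearson 95% intervals were computed from the counts (Python 3.11.15, scipy 1.17.1) and tested on simulated counts. Intervals cover counting error only. The limit was 4-fold, with a listed 0 read as 10 reads. In bulk samples, fewer vesicles of a type and less RNA per vesicle cannot be told apart. The rule for named miRNAs took the 10 most abundant of each library, the 8 highest and 8 lowest ratios, the 8 most abundant in semen listed at 0 in urine, those listed at 0 in semen, members of 17 lists, and the 3 nearest each limit. Others, among them miR-378, miR-27b-3p, miR-23b, miR-140-3p, miR-181a and miR-9, were chosen after their values were seen. Members and lists were chosen with earlier results of these data known. Alternatives were TMM (edgeR 4.0.16), DESeq2 1.42.0 size factors, totals without miR-148a-3p, the authors' RPM, a floor of 3 reads, other filters and limits, and summed arms. Leaving out the plasma library and reading zeros in list sums as 9 reads were added after the data were seen. Mature sequences were not used here, so seed families and sequence features were not run. Neighbouring genes, within 10 kb, come from RefSeq on Sscrofa11.1, where 122 of the 128 names matched a gene. No coordinates were taken from it.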

Additional observations from a re-analysis of the deposited data

How the results depend on the processing

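No paired analysis was possible because each fluid has 1 library, and for the same reason no replicate could be left out. The median log2 ratio over miRNAs above 0 in both libraries, -0.90 by CPM, was 0.0897 with TMM, -3.68e-15 with DESeq2 size factors, -0.0773 without miR-148a-3p in the totals, 5.53 on the authors' RPM and -0.79 with at least 100 counts in either library. The 4 miRNAs at least 4-fold higher in semen became 8 with TMM, 7 with DESeq2 size factors, 7 without miR-148a-3p in the totals, 105 on the authors' RPM and 8 at 2-fold. The 32 lower in semen became 5 on the authors' RPM and 19 with at least 100 counts in either. They were 27, 28 and 28 with TMM, DESeq2 size factors and totals without miR-148a-3p, all among the 32. Lost under each of these were miR-27b-3p, miR-30b-5p, miR-30c-5p and miR-30e-5p, and under TMM also miR-140-3p. The 7 miRNAs higher in semen and urine than in the other fluids became 0 on the authors' RPM and 3 at 4-fold, 5 with TMM over the 5 libraries, which dropped miR-210 and miR-9, and 8 without the plasma library. Reading the listed zeros of a list as 9 reads in 1 library, added after the data were seen, turned no list sum, and moved the epithelial ratio to 1.11 and the white blood cell ratio from 0.23 to 0.0388. On the authors' RPM the semen-over-urine ratio turned above 1 for 54 of the 61 miRNAs that were above 0 in both libraries and below 1 by CPM. Those that had been at least 4-fold lower in semen were miR-122 (3.20), miR-140-3p (11.5), miR-146a-5p (8.93), miR-181a (3.45), miR-194a (1.42), miR-204 (1.25), miR-23b (9.60), miR-27b-3p (14.2), miR-30a-3p (3.19), miR-30a-5p (3.37), miR-30b-5p (17.5), miR-30c-3p (3.87), miR-30c-5p (13.3), miR-30e-5p (17.5), miR-378 (5.07), miR-378b-3p (2.21), miR-9 (2.79) and miR-9-2 (7.92). Summed lists that had been at least 4-fold lower in semen turned for miR-30 (7.96), miR-17-92 (18.7), striated muscle (1.66), white blood cells (19.4) and hepatocytes (3.20), and nearer lists turned for HOX (53.1), let-7 (72.6), miR-532 (61.6) and endothelium (60.6). The RPM is per total reads and the CPM per miRNA reads, and miRNAs were 21.2% of the total in semen and 0.246% in urine. Sums over seed families were not run. Urine depth limits the comparison, since 1 read is 37.7 CPM there and 0.438 CPM in semen.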
